A study of Mus musculus with 28 samples.

Results

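Described here are 59 features whose levels in cultured mouse neurons were lower after capture by TIVA than after collection by pipette, in cortex and in hippocampus alike. A feature is a row of the deposited tables, named by a UCSC known-gene identifier or by several isoform identifiers joined together. Levels are CPM, the usual scaling of a count to the reads that its library had assigned to features. A feature was taken when the mean of log2(CPM + 10) over TIVA libraries minus that over pipette libraries was −2 or less, or 4-fold on this scale, in cultured cortical neurons and also in cultured hippocampal neurons, which held for 59 of 28661 features. The cultured libraries thus chose the members, and their values there are given as a description. Neurons taken from tissue and bulk hippocampus had no part in the choice.

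In TIVA, short for transcriptome in vivo analysis, a caged tag enters living cells, light opens it in a chosen cell, and the opened tag hybridises to the poly(A) tails of that cell's messenger RNA, which is then pulled out by the tag. A glass pipette in contrast draws up the cell body itself with whatever cytoplasm, nucleus and torn process comes along. Both yield picograms of RNA that must be amplified before sequencing, and transcripts present in few copies can be lost at capture or in the first round of copying.

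All 28 libraries came from C57BL/6 mice, and the RNA of each was amplified linearly in 3 rounds of in vitro transcription. Neurons on coverslips were kept in culture for 7 to 9 days and gave 4 cortical TIVA and 4 cortical pipette libraries, and 4 hippocampal TIVA and 3 hippocampal pipette libraries, where the TIVA cells took up 10 µM tag during 15 min and were photolysed at 30% laser power. Acute slices of mice 8 to 10 days old gave 2 cortical TIVA neurons, 5 hippocampal TIVA neurons, 3 hippocampal pipette neurons and 3 libraries of bulk hippocampus, which holds neurons and glia together. In tissue the tag was given at 30 µM during 90 min and photolysed at 80% power, so that dose, loading time and laser power differ along with the setting. Per the protocols the field around a photolysed cell was aspirated together with it before the tagged RNA was processed, and pipette and bulk samples are labelled as untreated. The source name of the 3 hippocampal tissue pipette neurons says pipette while their extraction text describes TIVA capture, and the source name was followed. The protocol text of the cortical tissue neurons mentions the CA1 field of the hippocampus, and here too the source name was followed.

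The identifiers could not be paired with gene names: 0 of the 55419 single identifiers, 135 of which make up the 59 features, matched the gene tables used here. What the features encode is therefore not stated, and neither was the labelled cell type checked against markers. At most 2 identifiers in each direction are printed, and other members are given by rank or by counts. Each single-neuron library is 1 cell, and no animal or culture of origin is named, so each group counts as 1 sample and the comparisons carry neither test nor p-value. Differences are set beside the range over libraries and beside the same measure over all features.

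Assigned reads ranged from 5.30 to 59.05 M per library. A count of 0 allows up to 3 reads, which equal 0.0508 to 0.567 CPM. Reads outside features made up 19.9% to 67.5% of all counted reads in cultured TIVA libraries, 31.5% to 81.1% in cultured pipette libraries, and 15.8% to 39.2% in tissue neurons and bulk tissue. The 50 most abundant features of a library took 24.5% to 66.6% of the assigned reads in cultured TIVA libraries, 13.9% to 19.4% in cultured pipette libraries, and 16.0% to 36.6% elsewhere. The part of these differences in the levels below was not tested beyond the scalings that are given.

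In cultured cortical neurons the members had a median TIVA minus pipette difference of −2.34 (−3.58 to −2.002), and the 10694 features that averaged at least 5 CPM over all libraries had a median of −0.10. In cultured hippocampal neurons the median was −2.54 (−3.73 to −2.02) for the members and −0.40 for those features. The limit of −2 was passed by 185 features in cortex (0.645% of all) and 315 in hippocampus (1.1%), and the 59 shared ones are 31.9% of the cortical and 18.7% of the hippocampal list. Every hippocampal TIVA library lay below every hippocampal pipette library for all 59 members, and the same held in cortex for 56. These separations follow from the choice of members.

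The edge of the set was not sharp. The member nearest the limit differed by −2.002 in cortex and −2.08 in hippocampus, and the nearest feature left out by −1.98 and −3.58. In 30 members the weaker of both differences lay between −2.2 and −2, and in 43 features outside the set it lay between −2 and −1.8. Only uc009kim.1:uc009kin.1 reached −3 or less in both regions, at −3.17 in cortex and −3.37 in hippocampus.

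Membership also depended on how libraries were scaled. With the same limit, 15 features passed under TMM scaling and 22 under DESeq2 size factors. When the 50 most abundant features were left out of the library total 12 passed, and when all counted reads made up the total 3 passed. Under each of these 4 scalings all 59 members were at least 2-fold lower by TIVA in both regions, which their choice in the same libraries largely fixes, with medians between −2.59 and −1.70 in cortex and between −1.87 and −1.71 in hippocampus. Leaving out any cultured library left 47 to 75 features past the limit, and 25 of the 59 members passed it whichever library was left out.

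Member levels spanned a wide range in each group. Single members averaged as low as 1.92 CPM in cultured cortical TIVA neurons, 1.22 CPM in cultured hippocampal TIVA neurons and 0 CPM in cortical tissue TIVA neurons, and as high as 8342 CPM in cultured hippocampal pipette neurons. Over the 59, the median of the mean level was 32.9 CPM in cultured cortical TIVA neurons and 298 CPM in cultured cortical pipette neurons, and 48.9 CPM in cultured hippocampal TIVA neurons and 320 CPM in cultured hippocampal pipette neurons. In tissue it was 142 CPM in cortical TIVA neurons, 152 CPM in hippocampal TIVA neurons and 167 CPM in hippocampal pipette neurons, and in bulk hippocampus 108 CPM. For features that averaged at least 5 CPM in a group, the median lay between 23.9 and 46.2 CPM in all 8 groups. The rule took features with low cultured TIVA and high cultured pipette levels. This favours levels of other groups between them without fixing those levels, and the following counts are a description only. For 51 of the 59 members the hippocampal tissue TIVA mean lay between the cultured hippocampal TIVA and pipette means, for 3 at or above the pipette mean and for 5 at or below the TIVA mean. Tissue pipette neurons gave 44 between, 8 at or above and 7 at or below, bulk hippocampus gave 56, 0 and 3, and cortical tissue TIVA neurons, set against cultured cortex, 35, 9 and 15.

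**Figure D1:**
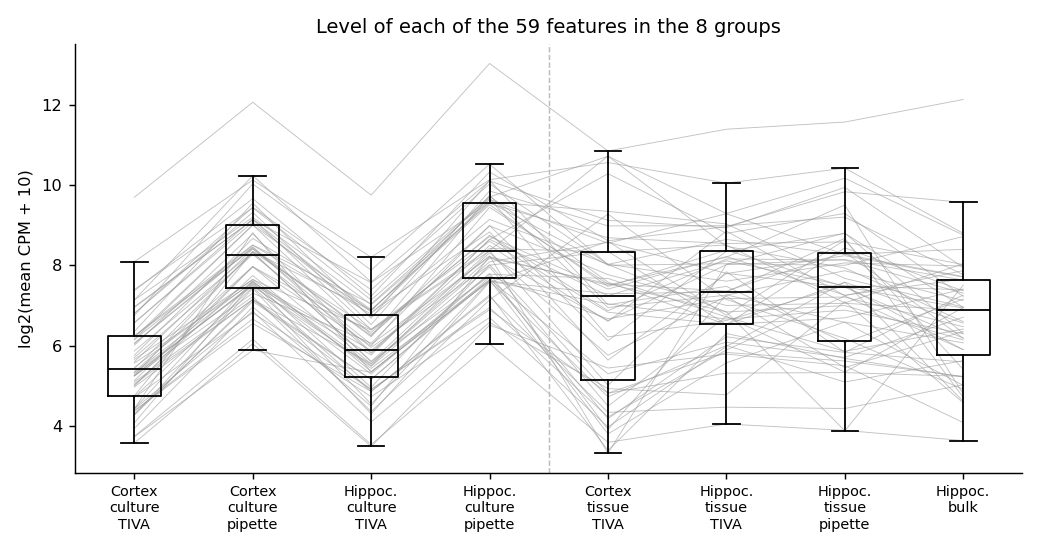
Level of each of the 59 features (grey lines, log2 of the group's mean CPM + 10) in the 8 groups, with cultured groups left of the dashed line and tissue neurons and bulk right of it. Boxes give the median and quartiles over features and whiskers reach to at most 1.5 box heights; the cultured TIVA and pipette boxes stand apart by the choice of features, and the 4 tissue boxes lie at heights between them.

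The share of assigned reads that went to the members was 0.271%, 0.463%, 0.444% and 0.311% in the cultured cortical TIVA libraries, against 2.69%, 2.24%, 1.87% and 2.85% in the cortical pipette libraries. It was 0.399%, 0.394%, 0.450% and 0.632% in the cultured hippocampal TIVA libraries, against 3.41%, 3.46% and 3.55% in the hippocampal pipette libraries. These gaps are what the rule selected. Outside the rule's libraries the shares were closer together, at 1.63% and 1.71% in cortical tissue TIVA neurons, 1.52%, 1.39%, 1.52%, 1.39% and 1.86% in hippocampal tissue TIVA neurons, and 1.66%, 1.75% and 1.88% in hippocampal tissue pipette neurons. Bulk hippocampus had 1.46%, 1.01% and 1.19%. Hippocampal TIVA and pipette neurons from tissue overlapped in this share, and so did the TIVA neurons and bulk tissue, while the pipette neurons lay above bulk.

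A single member carried much of the bulk share. The most abundant one, a feature of 1 identifier, averaged 4474 CPM in bulk hippocampus (SD 1849, n = 3) and took 24.8% to 42.3% of all member reads there. In hippocampal tissue it averaged 2674 CPM by TIVA (SD 839.6, n = 5) and 3028 CPM by pipette (SD 1202, n = 3), with ranges that overlapped each other and the bulk range. It was also the one member among the 50 features of highest mean level over all libraries. Without it, the share of the other 58 members was 1.14% to 1.503% in hippocampal tissue TIVA neurons, 1.25% to 1.57% in tissue pipette neurons and 0.721% to 0.842% in bulk tissue, and both kinds of neuron then stood above bulk with no overlap. The median level over all 59 members gave the same order without overlap: 183, 125, 149, 134 and 191 CPM in the TIVA neurons and 107, 158 and 168 CPM in the pipette neurons, against 80.2, 101 and 93.4 CPM in bulk hippocampus.

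**Figure D2:**
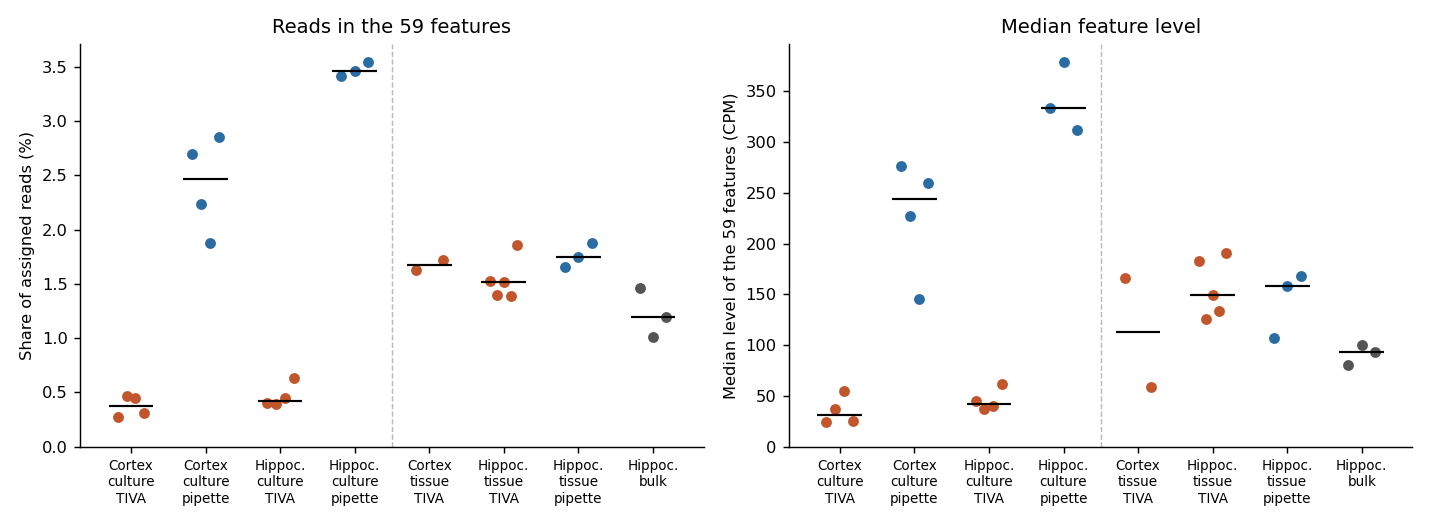
Share of assigned reads in the 59 features (left, percent) and median level of these features (right, CPM) in each of the 28 libraries; points are libraries, bars are group medians, and the dashed line parts the cultured libraries that chose the features from tissue neurons and bulk hippocampus. In tissue the TIVA and pipette neurons overlap, at 125 to 191 CPM and 107 to 168 CPM, above the bulk libraries at 80.2 to 101 CPM.

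The first comparison free of the rule asked whether hippocampal neurons in tissue showed the same gap between TIVA and pipette. The median over the members showed no gap of that size. The median TIVA minus pipette difference was 0.10 over the 59 members (−2.28 to 2.27) and 0.27 over the 9431 features that averaged at least 5 CPM in these groups, and the members' median in single TIVA neurons ran from −0.28 to 0.29. By TIVA, 11 members (18.6%) were 2-fold or more higher and 10 (16.9%) 2-fold or more lower, against 20.5% and 10.7% of all features. Counting only features whose libraries did not overlap, 3 members (5.08%) were higher and 2 (3.39%) lower, against 4.88% and 1.91%. The share higher was close to the background in both counts. The share lower, the direction of the cultured gap, was above it, but it rests on 10 members, or 2 with libraries apart. With so few members it is not read as a gap. Among features that averaged at least 50 CPM in these groups, a filter added after the data were seen, 10 of 53 members were lower. The share of all such features was 14.7%. Leaving out the first pipette neuron gave 14 of 59 members lower, against 14.1% of all features. The other 38 members differed by less than 2-fold. The median was −0.09 with DESeq2 size factors, −0.08 with summed counts and −0.16 without the first pipette neuron, so its sign is not fixed by these data. Depth differed between these groups, at 24.1 to 33.4 M reads in the TIVA neurons and 6.64 to 11.6 M in the pipette neurons, and its part in the differences was not tested.

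The members can be described by their tissue difference together with their level relative to bulk. The 11 members higher by TIVA had a median of 0.83 for TIVA neurons minus bulk and −1.08 for pipette neurons minus bulk. The 10 members lower by TIVA had medians of −0.14 for TIVA neurons minus bulk and 1.22 for pipette neurons minus bulk. The 38 members within 2-fold had medians of 0.54 and 0.41. Since the sets were formed on the difference between TIVA and pipette neurons, a gap between their medians relative to bulk is built in, and these values support nothing further.

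**Figure D3:**
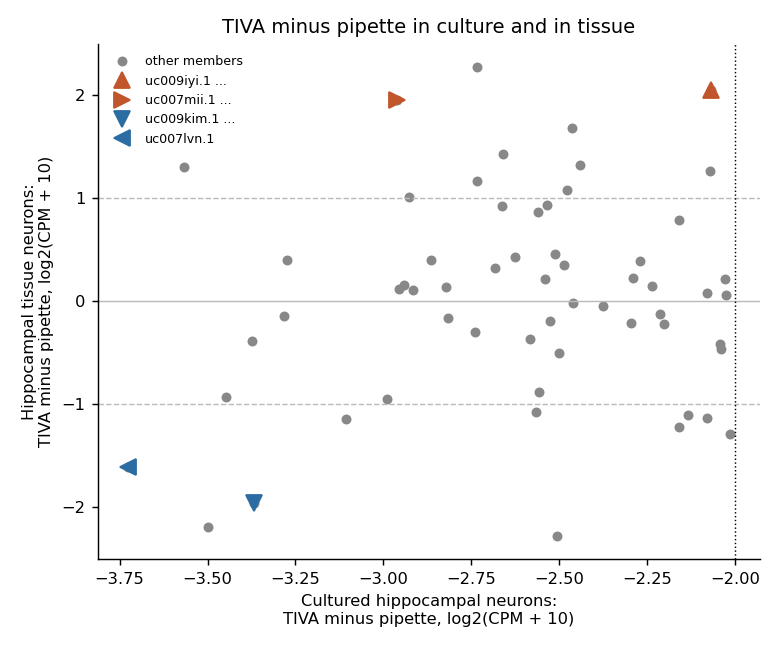
TIVA minus pipette difference in mean log2(CPM + 10) of each member in cultured hippocampal neurons (horizontal, limited to −2 or less by the rule, dotted line) and in hippocampal tissue neurons (vertical; dashed lines mark 2-fold). Triangles mark the 4 features printed by identifier; 11 members lie at 1 or more and 10 at −1 or less on the vertical axis.

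Among members higher by TIVA in tissue with no overlap of libraries, the first was uc009iyi.1:uc009iyj.1:uc009iyk.1. It had 134, 118, 198, 229 and 416 CPM in the tissue TIVA neurons, against 28.0, 23.6 and 89.6 CPM in the tissue pipette neurons. Every TIVA neuron lay above every pipette neuron, by 2.05 on the log2(CPM + 10) scale. In culture the order was opposite, which the choice of members sets. Cortex had 22.2, 50.3, 72.1 and 17.4 CPM by TIVA and 120, 273, 129 and 236 CPM by pipette. Cultured hippocampal neurons had 33.6, 74.3, 65.5 and 122 CPM by TIVA and 318, 368 and 270 CPM by pipette. Tissue pipette neurons thus overlapped the cultured TIVA levels, and bulk hippocampus, at 234, 87.0 and 108 CPM, overlapped the tissue TIVA neurons. The cortical tissue neurons had 42.1 and 2.46 CPM.

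The second, uc007mii.1:uc007mij.1:uc007mik.1, had 83.4, 125, 215, 153 and 123 CPM in tissue TIVA neurons, against 8.04, 28.2 and 65.3 CPM in tissue pipette neurons, a difference of 1.95. All bulk libraries, at 55.1, 82.8 and 77.4 CPM, lay below the lowest tissue TIVA neuron, the nearest by less than 1 CPM. In cultured hippocampus it stood at 11.8, 27.8, 32.7 and 68.9 CPM by TIVA and 333, 282 and 310.0 CPM by pipette. Its reads summed over the tissue groups gave 144 CPM by TIVA (142 to 146) and 38.7 CPM by pipette (36.3 to 41.1), with 95% Poisson intervals that cover counting error only.

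Only 2 members met the naming rule in the other direction. Of these uc009kim.1:uc009kin.1 had 88.6, 76.2, 70.0, 65.1 and 191 CPM in hippocampal tissue TIVA neurons, against 454, 307 and 396 CPM in tissue pipette neurons, a difference of −1.96. The TIVA libraries were lower here in all 3 settings where both means of collection were used. The choice of members set this order in culture, and the naming rule set it in tissue. Cultured cortex had 8.26, 6.65, 17.9 and 4.82 CPM by TIVA and 170.0, 207, 122 and 149 CPM by pipette. Cultured hippocampus had 6.64, 5.18, 3.15 and 23.9 CPM by TIVA and 180, 147 and 217 CPM by pipette. The cortical tissue TIVA neurons did not follow: at 346 and 408 CPM they lay within the range of the hippocampal tissue pipette neurons. Every tissue neuron lay above the bulk libraries, which had 35.1, 51.6 and 10.5 CPM.

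The other, uc007lvn.1, had 318, 438, 263, 373 and 31.8 CPM in hippocampal tissue TIVA neurons, against 956, 695 and 498 CPM in tissue pipette neurons, a difference of −1.61. The fifth TIVA neuron was low, the other 4 were at 263 CPM or more, and without the fifth the difference was −0.99, just short of 2-fold. Bulk hippocampus had 19.9, 14.0 and 19.4 CPM, below all tissue neurons, and cortical tissue TIVA neurons had 219 and 124 CPM. Pipette neurons averaged 40.3 times the bulk mean and TIVA neurons 16.0 times. Among cultured cortical pipette neurons it ranged from 3 reads, or 0.267 CPM, to 254 CPM, so that it is one of the 3 members whose cortical TIVA and pipette libraries overlapped.

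**Figure D4:**
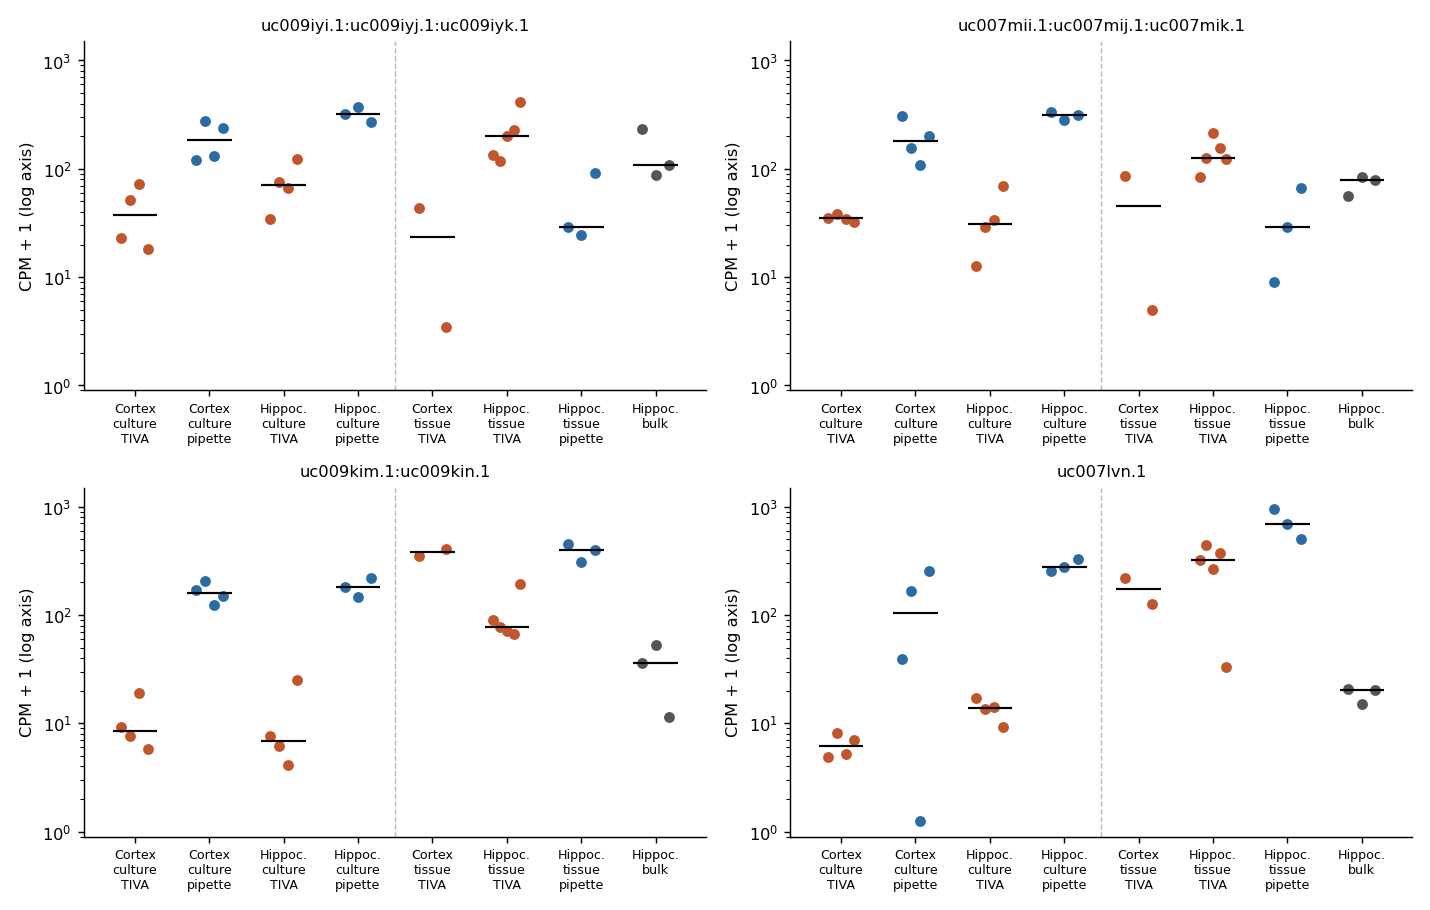
Level of the 4 printed members in each library (CPM + 1, log axis), by group; points are libraries and bars group medians, with cultured groups left of the dashed line. In hippocampal tissue the upper features are higher by TIVA and the lower features higher by pipette, while in culture all 4 have higher group medians by pipette. The choice of members sets the cultured order and the naming rule the tissue order.

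Single neurons of hippocampal tissue were then set against bulk hippocampus. The members' medians were above bulk in both kinds of neuron, and those of all features below it. For TIVA neurons minus bulk the median was 0.53 over the 59 members (−2.27 to 3.06), and −0.26 over the 10413 features tested, with 39 of the 59 members above 0 and 20 below, against 36.9% of all features above 0. Of the 58 members that averaged at least 5 CPM in these groups, 19 (32.8%) were 2-fold or more higher in the neurons and 2 (3.45%) 2-fold or more lower, against 5.35% and 18.9% of all features. With libraries apart these were 10 (17.2%) and 0, against 2.13% and 9.1%. The count of 2 lower members was 5 without the fifth TIVA neuron, against 19.3% of all features. Each single TIVA neuron had a median difference of 0.29 to 0.76. In bulk tissue a lower level can mean fewer cells with the transcript or less of it in each cell, which cannot be told apart.

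For pipette neurons minus bulk the median was 0.43 over the 59 members (−3.69 to 4.67) and −0.54 over the 9967 features tested, with single neurons at 0.16 to 0.67. Of the 59 members 37 were above 0 and 22 below, against 29.5% of all features above 0. Of 58 members, 18 (31.0%) were 2-fold or more higher and 7 (12.1%) lower, against 5.97% and 31.2% of all features. With libraries apart these were 12 (20.7%) and 3 (5.17%), against 3.3% and 22.6%. With the second pipette neuron left out 11 members were lower in place of 7, against 33.0% of all features. With the first left out 3 were lower, against 33.6%. Both comparisons use the same bulk libraries. In 7 members (11.9%) every one of the 8 hippocampal tissue neurons lay above every bulk library, against 0.701% of the 10129 features that averaged at least 5 CPM over the 3 groups. All 59 members were counted here without that filter. Levels were not matched, and low features can drop out of single cells, so the contrast is not read as particular to the members.

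The members were more abundant than most features, and the background depends on abundance. Among features that averaged at least 50 CPM in the groups compared, a filter added after the data were seen, 17 of 48 members were 2-fold higher in TIVA neurons than in bulk, against 10.8% of all such features, and 16 of 50 in pipette neurons, against 12.9%. With DESeq2 size factors the members' medians were 1.204 for TIVA and 1.21 for pipette neurons, when those of all features were 0.21 and 0.11.

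**Figure D5:**
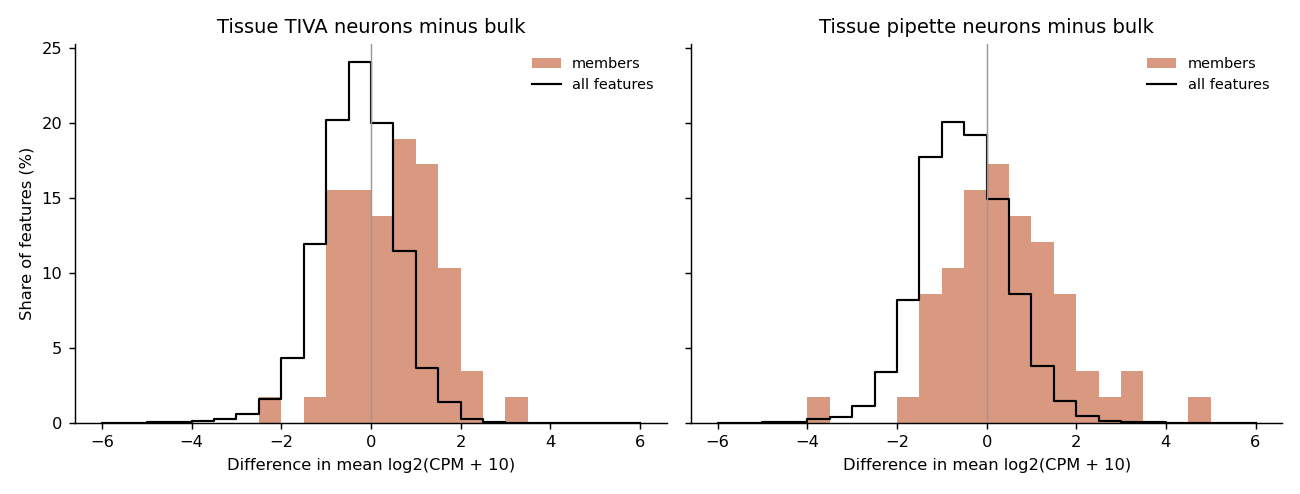
Distribution of the difference from bulk hippocampus in mean log2(CPM + 10), for hippocampal tissue TIVA neurons (left) and tissue pipette neurons (right); bars are the 58 members and the line all features averaging at least 5 CPM, each as a percent of its own number in bins of 0.5. Member medians are 0.54 and 0.44 over the members shown, and those of all features −0.26 and −0.54.

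Levels in bulk tissue divided the members unevenly. In bulk hippocampus 42 members averaged 50 CPM or more, 15 between 10 and 50 CPM and 2 under 10 CPM. Of all features 12.9%, 18.3% and 19.7% fell in these classes, and 49.1% were under 1 CPM in every bulk library. The 15 of the middle class had a larger contrast with neurons than the 42 of the highest class. Their median difference from bulk was 0.80 in TIVA neurons and 0.96 in pipette neurons, and 7 were 2-fold higher in each. The 2 members under 10 CPM had medians of 0.83 and 0.68, with 1 member 2-fold higher in each. Among the 42 of the highest class the medians were 0.41 and 0.21, with 11 and 10 members 2-fold higher. The classes are defined by the bulk level that also enters the differences, so this order is a description. The 2-fold counts were not made over all features of each class, so they are not read as particular to the members.

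The member ranked 2 by the mean of both cultured differences, singled out after its values were seen, belongs to the middle class. It averaged 152 CPM in hippocampal tissue TIVA neurons and 398 CPM in tissue pipette neurons, against 16.2 CPM in bulk hippocampus. In cultured cortex it averaged 6.85 CPM by TIVA and 180 CPM by pipette, and in cultured hippocampus 13.4 CPM by TIVA and 185 CPM by pipette. Its cortical tissue TIVA mean was 147 CPM. The pipette neurons spread widely here, between 107 and 899 CPM, and the TIVA neurons between 53.3 and 242 CPM, but none came near the bulk libraries at 12.4 to 18.6 CPM.

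In tissue pipette neurons 2 members (3.39%) averaged under 10 CPM and 12 (20.3%) between 10 and 50 CPM, against 11.6% and 12.5% of all features. None was under 1 CPM in every tissue pipette neuron, against 63.9% of all features. The member ranked 25 by the cultured differences, also singled out after its values were seen, averaged 105 CPM in hippocampal tissue TIVA neurons, 4.71 CPM in tissue pipette neurons and 172 CPM in bulk hippocampus. The TIVA neurons spanned 0 to 298 CPM, the pipette neurons 0.151 to 11.4 CPM and the bulk libraries 148 to 204 CPM, so that neurons of one kind alone differed over a wide range. In cultured hippocampus it averaged 226 CPM by TIVA and 1458 CPM by pipette.

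Cortical tissue TIVA neurons were compared with hippocampal tissue TIVA neurons to ask about the region. Only 2 cortical neurons were available, at 7.89 and 5.30 M reads, against 24.1 to 33.4 M in the hippocampal TIVA neurons. The median difference was −0.50 over the 59 members (−4.64 to 2.23) and −0.86 over the 8951 features tested, and the cortical neurons by themselves gave −0.11 and −1.04. Of 58 members, 6 (10.3%) were 2-fold or more higher in cortex and 19 (32.8%) lower, against 10.2% and 43.8% of all features. With libraries apart these were 3 (5.17%) and 12 (20.7%), against 2.6% and 20.7%. With DESeq2 size factors the median was 0.29. With either cortical neuron left out the comparison rests on 1 cell, with the medians of −0.11 and −1.04 given above.

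In cortical tissue 2 members (3.39%) were under 1 CPM in both neurons, against 73.3% of all features. Another 7 members were under 1 CPM in 1 of the neurons. One of the 2 members under 1 CPM in both had 0 reads in both cells, which allows up to 0.380 and 0.567 CPM. It averaged 251 CPM in hippocampal tissue TIVA neurons (134 to 348 CPM), 437 CPM in hippocampal tissue pipette neurons and 68.8 CPM in bulk hippocampus. In cultured cortex it averaged 37.3 CPM by TIVA and 180 CPM by pipette. Region and depth differ together between the tissue groups, and their parts were not tested.

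Set against culture, the members moved in opposite directions by means of collection, which the rule favours because it took features low in cultured TIVA and high in cultured pipette libraries. Hippocampal tissue TIVA minus cultured hippocampal TIVA neurons had a member median of 1.34, with 36 of 58 members (62.1%) 2-fold higher and 1 lower, against 16.8% and 8.56% of all features. Hippocampal tissue pipette minus cultured hippocampal pipette neurons had a median of −1.37, with 2 of 59 higher and 38 (64.4%) lower, against 7.4% and 33.6%. Cortical tissue TIVA minus cultured cortical TIVA neurons had a median of 0.99, with 29 of 57 higher and 4 lower, against 11% and 48.1%.

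The cultured groups were also set against bulk hippocampus, as a description, since the cultured libraries chose the members. Cultured TIVA neurons lay below it, with medians of −1.03 in cortex and −0.74 in hippocampus. Of 57 members each, 32 in cortex and 20 in hippocampus were 2-fold lower and 0 higher, against 8.3% and 13% of all features lower and 1.24% and 0.625% higher. Cultured pipette neurons lay above it, with medians of 1.33 in cortex and 1.92 in hippocampus. Of 59 members, 41 in cortex and 51 in hippocampus were 2-fold higher and 0 lower, against 6.82% and 11% of all features higher and 13.3% and 10.3% lower. The signs of these differences are largely set by the choice of members. The cortical values set cultured cortex against bulk hippocampus, so that region and setting differ together.

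Detection was compared at a common depth. With all libraries thinned to the 5.30 M reads of the smallest, 56 of 59 members had a read in each cortical tissue TIVA neuron, 57 to 59 in the hippocampal tissue TIVA neurons, and all 59 in every tissue pipette neuron and bulk library. Among the 10694 features that averaged at least 5 CPM over all libraries, 59.2% to 87.3% were detected in a tissue neuron and 99.5% to 99.6% in a bulk library. Members were on average more abundant than these features, and levels were not matched. Presence and absence between cells of 1 group was rare. Among members at 50 CPM or more in a hippocampal tissue TIVA neuron, a median of 2.08% were under 1 CPM in another (0% to 2.38%), and among tissue pipette neurons 1.11% (0% to 2.63%). The medians over all features were 8.99% and 10.6%. Between the cortical tissue neurons the shares were 2.63% and 3.33% in the 2 directions, and over all features the median was 21.3%.

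Variation of level was also smaller than over all features in the tissue neurons. Among the 51 members with a mean of 50 CPM or more in hippocampal tissue TIVA neurons the median SD of log2(CPM + 10) between cells was 0.75, and over the 4011 such features it was 0.99. In tissue pipette neurons these were 0.77 over 45 members and 1.05 over 3423 features, and in bulk hippocampus 0.46 over 42 members and 0.46 over 3702 features. Levels were not matched in these comparisons, and members were on average the more abundant. In hippocampal tissue 35 members stood at 50 CPM or more in all 5 TIVA neurons and 32 in all 3 pipette neurons, against 38 in all 3 bulk libraries. The same count was not made over all features, so it is not read as particular to the members.

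Levels were correlated between groups (Pearson r), over the members and over all features. Mean log2 levels in cultured hippocampal TIVA neurons and bulk hippocampus had r = 0.92 over the 59 members and 0.92 over 10694 features. In cultured hippocampal pipette neurons and bulk r was 0.87 over the members and 0.82 over the features. With bulk the hippocampal tissue TIVA neurons gave 0.77 over the members and 0.84 over the features, and the tissue pipette neurons 0.62 and 0.82. Tissue TIVA and tissue pipette neurons with each other gave 0.80 and 0.84. These values run across features, which are not independent, and all libraries share the same features and amplification. The range of levels, on which r depends, was not matched between members and all features.

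The names of the members show a single property that the rule did not use, the number of joined isoform identifiers. Of the 59, 25 (42.4%) had 1 identifier, against 31.4% of the features that averaged at least 5 CPM and 58.2% of all features, and the largest joined 8. Members of 1 identifier and those of 2 or more had medians of 0.33 and 0.55 for hippocampal tissue TIVA neurons minus bulk, and of −0.05 and 0.17 for tissue TIVA minus tissue pipette neurons.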

How the data were processed

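RNA of 25 single neurons and 3 pieces of bulk hippocampus was sequenced. Per library the authors deposited whole-number counts of reads for each feature, made with CASAVA 1.8.1, HTSeq and the build mm9 per the submitters' processing notes. No source used here gives the aligner, the overlap mode or the use of strand, and reads of overlapping, antisense or near-identical features could not be told apart. The 5 HTSeq summary lines are not features and did not enter library totals, and the share outside features is in the report. Libraries were grouped by source name, and replicate numbers follow record order. The lowest chi-square per degree of freedom between libraries of a group was 45.7, so none was merged.

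Members were found by the rule on mean log2(CPM + 10). Features averaging at least 5 CPM over the groups compared formed the background. Printed identifiers are the 2 members highest and the 2 lowest in hippocampal tissue TIVA minus pipette neurons, among those with 20 CPM or more on average and 10 reads or more in every library of the higher group and no overlap of libraries (4 and 2 were eligible). The members, lists and rules were chosen with earlier results of these data known. Markers of cell types were not used, for lack of gene names. Thinning used a fixed seed. The code of the rule was run on simulated counts with planted changes, which checks the code and says nothing about the members. Scaling alternatives used TMM factors (edgeR 4.0.16) and size factors (DESeq2 1.42.0) in R 4.3.3, and other steps Python 3.11.15 with pandas 2.3.3. Intervals and floors cover counting error only.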

Additional observations from a re-analysis of the deposited data

Results flagged for a closer look

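In hippocampal tissue TIVA minus pipette was 2.05 for uc009iyi.1:uc009iyj.1:uc009iyk.1 and 1.95 for uc007mii.1:uc007mij.1:uc007mik.1, with all TIVA neurons above all pipette neurons, while in both cultured regions all TIVA libraries lay below all pipette libraries. The difference between settings was not tested. The choice of members set the cultured order, and the naming rule picked both for their tissue values, so the opposite order is largely built in.

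Among hippocampal tissue TIVA neurons the fifth stood apart in the share of reads in the members, at 1.86% against 1.39% to 1.52% in the others, and in uc009kim.1:uc009kin.1, at 191 CPM against 65.1 to 88.6 CPM. The fourth cultured hippocampal TIVA library stood apart in uc009kim.1:uc009kin.1, at 23.9 CPM against 3.15 to 6.64 CPM. The first cultured hippocampal TIVA library had 57 members with a read at the common depth and the third cultured cortical pipette library 58, when the other libraries of their groups had 59. Chance marks about 1 in 20 sets of values in this way, and 5 of the 23 sets checked were marked. A set is 1 measure in 1 group, and sets share libraries. Where all other libraries had 59 members, any lower count is marked, so the rate does not hold for detection. No excess over chance is read from these marks.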

How the results depend on the processing

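With the limit of −2, 185 features passed with a pseudocount of 1 CPM, 15 with TMM factors, 22 with DESeq2 size factors, 12 with CPM outside the 50 most abundant features and, added after seeing the data, 3 with CPM of all counted reads, against 59. Leaving out single cultured libraries gave 47 to 75.

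Hippocampal tissue TIVA minus pipette neurons kept a median within 1 SD of single neurons under other settings, except at a limit of −3, where the 1 remaining member gave −1.96, and without pipette replicate 1, which gave −0.16 and turned its sign. Leaving out single libraries gave −0.16 to 0.20. TIVA neurons minus bulk had a median of 0.78 with TMM, 1.204 with DESeq2, 0.30 at a limit of −1.5 and 1.38 at −3. Their members 2-fold higher were 33 of 58 with DESeq2, against 18.3% of all features there and 5.35% with library totals. Members lower, 2 in the report, were 4 with a pseudocount of 1 CPM, 1 with TMM, 1 with DESeq2 and 0 with summed counts. With single libraries left out they were 1 to 5 (1 without TIVA replicate 2 or bulk replicate 3, 5 without TIVA replicate 5). All features lower made up 7.74% with DESeq2, 13.2% with TMM, 14.1% with summed counts and 44.0% with a pseudocount of 1 CPM. They made up 19.2% without TIVA replicate 2, 17.1% without bulk replicate 3 and 19.3% without TIVA replicate 5. Pipette neurons minus bulk had a median of 1.21 with DESeq2 and 3.34 at −3. Under DESeq2 36 of 58 members were higher, against 20.7% of all features there and 5.97% with library totals. Members lower, 7 in the report, were 3 with TMM, 2 with DESeq2, 4 with CPM of all counted reads and 4 with summed counts. With single libraries left out they were 3 to 11 (3 without pipette replicate 1, 11 without replicate 2). All features lower made up 12.8% with DESeq2, 22.9% with TMM and 31.2% with library totals. With CPM of all counted reads they made up 20.8%, and with summed counts 26.6%. Without pipette replicate 1 they made up 33.6%, and without replicate 2 33.0%. Cortical minus hippocampal tissue TIVA neurons had a median of 0.29 and 22 members higher with DESeq2, and a median of 1.94 at −3. That count stands without the share of all features, so it is not read as a result about the members. Leaving out single libraries gave 5 to 10 members higher and 18 to 31 lower, given here without the share of all features and likewise not read as a result. The cause was not tested. Over these scalings the median of all features moved between −0.40 and 0.21 for TIVA neurons minus bulk.

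Outside the 50 most abundant features the median member share was 0.519% in cultured cortical TIVA, 0.805% in cultured hippocampal TIVA, 3.07% in cultured hippocampal pipette, 2.06% in cortical tissue TIVA, 1.95% in hippocampal tissue pipette and 0.945% in bulk libraries. Of all counted reads it was 0.157% and 0.656% in cultured cortical TIVA and pipette, 0.287% and 1.08% in cultured hippocampal TIVA and pipette, 1.32% in cortical and 1.05% in hippocampal tissue TIVA, 1.29% in tissue pipette and 0.845% in bulk libraries. The other 103 values for groups and comparisons, those without the filter on low levels among them, moved by less than 1 SD, or 1.5 times for counts, and all 24 for the printed features kept their direction. No paired analysis was possible because replicate numbers follow record order and no test was run. Counts at 1 CPM rest on few reads in the cortical tissue neurons, at 5.30 to 7.89 M reads.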
